A study of Mus musculus with 8 samples.

Results

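The genes described here are 3 regulators of skeletal muscle formation (Myf5, Myog and Mef2c), 6 genes of the sarcomere (Myl1, Myl4, Myh3, Tnni1, Tnnt2 and Actn2) and Popdc2, a membrane protein of striated muscle. They were selected by gene symbol from 6855 genes tested, and all 10 were measured, each by a single probe set. The selection was made with earlier results for the same genotypes in view. The levels and differences of these 10 genes are therefore given as a description. Counts of the 10 that passed a threshold in fits over all genes are likewise a description and not a test. Cultured sacral neural crest cells of mouse embryos were profiled on 8 Affymetrix Mouse Gene 1.0 ST arrays. Of these, 4 held RNA from embryos homozygous for Sox10 Dom, a frameshift allele of the crest transcription factor gene Sox10 (Dom/Dom), and 4 held RNA from wild-type embryos (WT), numbered as replicates 1 to 4 in each genotype. In both genotypes the neural tube caudal to somite 24 was taken at embryonic day 9.5 and cultured in medium with 10% serum, and RNA was prepared from the cells that had left the explant within 24 hours. The strain, the number of embryos behind each array and whether replicates came from separate litters are not given in the sources used here, so the spread between arrays may be partly technical. The Dom allele is present in every cell of the embryo, including any cell that is not neural crest.

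Skeletal muscle of the trunk arises from somites, which lie beside the neural tube, and not from the trunk neural crest. MYF5 commits precursors to the muscle fate, myogenin (Myog) drives their differentiation, and both bind DNA at E-boxes as basic helix-loop-helix proteins. MEF2 proteins bind beside them at muscle genes, and Mef2c is also expressed in neural crest and endothelium. Differentiating fibres then make sarcomeres, in which embryonic isoforms of myosin and troponin precede the adult ones. Myl4, Tnnt2 and Actn2 are also genes of the heart, so these genes are not specific to skeletal muscle one by one.

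The 250 bases before the annotated start of 6 of the genes are printed to show where E-boxes, the sites of MYF5 and myogenin, lie in them; the sequences are from RefSeq on GRCm38.p6, each read 5′ to 3′ on the strand of its gene, with E-boxes (CANNTG, which reads alike on both strands) in capitals. The first 4 hold an E-box and the last 2 hold none.
Myog (chr1:134289754-134290003, plus strand): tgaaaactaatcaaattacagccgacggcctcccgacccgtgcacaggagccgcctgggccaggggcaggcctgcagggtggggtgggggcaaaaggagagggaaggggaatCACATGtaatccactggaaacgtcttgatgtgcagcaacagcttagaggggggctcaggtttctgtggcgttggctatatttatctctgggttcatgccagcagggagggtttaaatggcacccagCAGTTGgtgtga
Myl1 (chr1:66945057-66945306, minus strand): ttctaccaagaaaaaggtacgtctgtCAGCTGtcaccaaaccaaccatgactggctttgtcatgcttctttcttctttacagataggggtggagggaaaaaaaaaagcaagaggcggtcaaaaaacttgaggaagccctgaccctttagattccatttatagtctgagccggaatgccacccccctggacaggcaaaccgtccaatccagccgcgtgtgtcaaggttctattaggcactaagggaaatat
Tnnt2 (chr1:135836084-135836333, plus strand): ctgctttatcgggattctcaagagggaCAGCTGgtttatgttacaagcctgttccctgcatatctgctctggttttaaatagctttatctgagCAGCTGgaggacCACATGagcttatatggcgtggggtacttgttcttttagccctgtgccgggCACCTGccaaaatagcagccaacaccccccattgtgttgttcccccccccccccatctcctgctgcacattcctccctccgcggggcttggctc
Myh3 (chr11:67078050-67078299, plus strand): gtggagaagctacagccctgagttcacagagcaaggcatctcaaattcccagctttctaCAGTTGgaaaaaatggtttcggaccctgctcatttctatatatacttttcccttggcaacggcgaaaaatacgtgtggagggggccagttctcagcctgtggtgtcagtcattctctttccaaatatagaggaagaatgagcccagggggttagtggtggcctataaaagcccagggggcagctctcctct
Myf5 (chr10:107486135-107486384, minus strand): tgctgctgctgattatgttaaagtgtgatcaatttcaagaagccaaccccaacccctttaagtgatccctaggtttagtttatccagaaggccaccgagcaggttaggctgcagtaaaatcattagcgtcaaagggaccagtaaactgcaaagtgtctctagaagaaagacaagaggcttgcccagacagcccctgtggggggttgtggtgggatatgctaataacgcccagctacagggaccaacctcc
Myl4 (chr11:104550413-104550662, plus strand): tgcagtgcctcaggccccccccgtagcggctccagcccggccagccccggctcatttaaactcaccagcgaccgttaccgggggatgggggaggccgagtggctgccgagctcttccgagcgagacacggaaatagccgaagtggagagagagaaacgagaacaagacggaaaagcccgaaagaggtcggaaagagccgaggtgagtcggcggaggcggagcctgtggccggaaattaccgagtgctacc

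RefSeq gave 14 such windows for the 10 genes, and for Tnnt2 the first of 2 is shown. An E-box was found in 11 of the 14 windows, belonging to 8 genes, and in 66.2% of the 32851 windows of all genes. The form CAGCTG, searched on both strands and itself a case of CANNTG, was found in 4 of the 14 windows, of Myl1, Tnni1 and Tnnt2, and in 13% of all windows. The MEF2 consensus was searched only in the strict form YTAWWWWTAR (Y is C or T, W is A or T, R is A or G). It was found in 0 of the 14 windows on either strand and in 2.92% of all windows. Near matches were not counted, such as ctatatttat in the Myog window, which misses the form at its last base. The search therefore does not show that MEF2 sites are absent. In Myog the E-boxes began 138 and 12 bases before the start, in Myl1 224 bases before it and in Myh3 191 bases before it. These matches describe the letters of the windows, and binding was not measured.

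Of the 10 genes, 9 were higher on average in Dom/Dom cultures, and Mef2c was lower. The higher levels were found in Dom/Dom replicates 2, 3 and 4, whereas Dom/Dom replicate 1 lay near the WT arrays. The differences ran from 0.28 (Tnnt2) to 1.26 (Myl1) on the log2 scale for the 9 genes, and the difference of Mef2c was -1.01. The median over the 10 genes was 0.41, and the median over all 6855 genes was -0.0009. In these bulk cultures, more cells of a type and more RNA per cell cannot be told apart.

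No detection calls came with the values. As a guide to dim levels, 213 olfactory receptor genes, which these cells are not known to use, had levels with a median of 6.55 and a 95th percentile of 8.25 over all arrays. Levels of different probe sets depend on their probes and cannot be ranked against each other. The levels of Myf5, Myog and Myh3 were above the 95th percentile of the receptors on the same array in 2, 3 and 3 of the 4 Dom/Dom arrays, and in 0 of the 4 WT arrays, so no fold is given for these 3 genes. Myl1 was above it in 3 of 4 Dom/Dom and 2 of 4 WT arrays, and the other 6 genes were above it on all 8. Near background RMA compresses differences, so those of Myf5, Myog, Myh3 and Myl1 may be too small.

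Myf5 had levels of 7.52, 8.11, 8.25 and 8.38 log2 units in Dom/Dom replicates 1 to 4, against 7.51, 7.39, 7.51 and 7.46 in WT replicates 1 to 4. The groups did not overlap, but Dom/Dom replicate 1 lay just above the highest WT array. The mean was 8.07 ± 0.38 in Dom/Dom and 7.47 ± 0.06 in WT (SD, n = 4 each), a difference of 0.60 (standard error 0.16). Standard errors here and below come from the limma fit with genotype alone, which draws each gene's variance towards that of all genes. For the most variable genes, such as Myl1 and Myl4, they are smaller than the spread of the arrays alone would give. Myf6, a related regulator that lies next to Myf5 on chromosome 10, stood at 7.57 to 7.66 in Dom/Dom and 7.57 to 7.77 in WT, a difference of -0.03 (limma adjusted p = 1.00). Myf6 was above the 95th percentile of the receptors in 0 of the 4 Dom/Dom and 0 of the 4 WT arrays, so it gives no contrast with Myf5.

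Myog had levels of 7.88, 8.59, 8.42 and 8.36 in Dom/Dom replicates 1 to 4, against 7.86, 7.73, 8.02 and 7.89 in WT. Dom/Dom replicates 2 to 4 were above every WT array, and replicate 1 lay among them. The difference was 0.44 (standard error 0.14).

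Mef2c ran the other way. Its levels were 9.11, 10.10, 10.15 and 10.41 in Dom/Dom, against 10.61, 10.75, 11.19 and 11.26 in WT. The groups did not overlap, and every Dom/Dom array was below its WT counterpart, replicate 1 by the most (-1.50). The mean was 9.94 ± 0.57 in Dom/Dom and 10.95 ± 0.32 in WT (SD, n = 4 each), which is 2.01-fold lower in Dom/Dom. Sox10, the gene that carries the Dom allele, was 9.98, 10.94, 10.52 and 10.55 in Dom/Dom against 11.67, 11.46, 11.89 and 11.75 in WT (limma adjusted p = 0.0168, but 0.0607 to 0.0762 when any 1 array of replicates 3 and 4 was left out). Like Mef2c, Sox10 was lowest in Dom/Dom replicate 1. Transcripts of the Dom allele remain in the cells, so the Sox10 level is no check of the genotype labels.

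**Figure D1:**
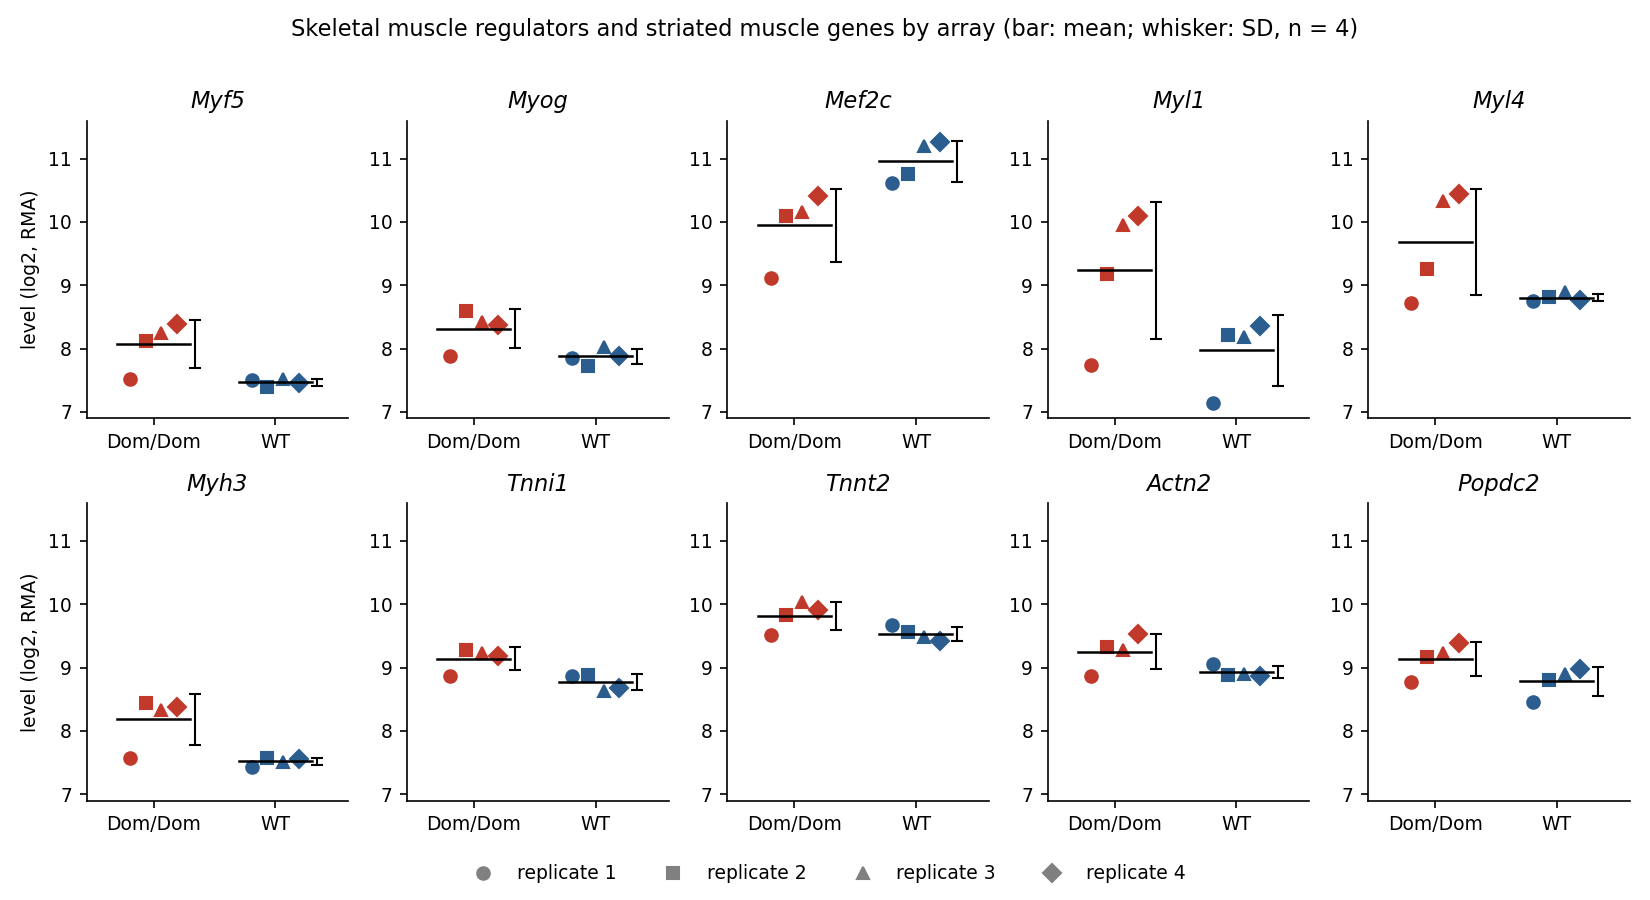
Level (log2, RMA) of each of the 10 genes in the 4 Dom/Dom arrays (left, red) and the 4 WT arrays (right, blue), with the symbol giving the replicate number, the horizontal bar the mean and the whisker the SD. In each gene the lowest Dom/Dom array is replicate 1, and Mef2c is the gene whose Dom/Dom arrays all lie below the WT arrays.

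Among the myosin light chains, the difference was widest for Myl1, which encodes the essential light chain of fast skeletal muscle. It had levels of 7.73, 9.17, 9.95 and 10.10 in Dom/Dom, against 7.14, 8.22, 8.19 and 8.35 in WT. Replicate 1 was the lowest array of both genotypes, so the ranges overlapped, while every Dom/Dom array exceeded the WT array of its number, by 0.60, 0.95, 1.77 and 1.74. The difference of the means was 1.26 with a standard error of 0.47, or 2.40-fold as measured, with replicate 1 of both genotypes and a second WT array not above the receptors' 95th percentile.

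Myl4 encodes the essential light chain of embryonic striated muscle and the atria. Its levels were 8.72, 9.25, 10.33 and 10.43 in Dom/Dom, against 8.76, 8.81, 8.89 and 8.77 in WT. The WT arrays lay within a narrow band (8.80 ± 0.06, SD, n = 4), and the Dom/Dom arrays were just below that band in replicate 1 and more than 1 log2 unit above it in replicates 3 and 4. The difference was 0.88 (standard error 0.32), or 1.84-fold. Differences by number were -0.03, 0.45, 1.44 and 1.66.

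Myh3, the myosin heavy chain of embryonic skeletal muscle, had levels of 7.57, 8.44, 8.33 and 8.39 in Dom/Dom, against 7.44, 7.57, 7.51 and 7.56 in WT. The 3 higher Dom/Dom arrays formed a group apart from the other 5 arrays, although Dom/Dom replicate 1 was still just above the highest WT array. The difference was 0.66 (standard error 0.17). Myh3 opens a run of adjacent myosin heavy chain genes on chromosome 11 that encode perinatal, adult and extraocular isoforms. The other 5 measured genes of this run (Myh2, Myh1, Myh4, Myh8 and Myh13) had differences between -0.08 and 0.02, and none passed the threshold in the fit over all genes (limma adjusted p = 1.00 for each). None of these 5 was above the receptors' 95th percentile on any Dom/Dom or WT array, so they give no contrast with Myh3.

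The troponin genes differed by less. Tnni1, which encodes the inhibitory subunit of slow muscle, had levels of 8.87, 9.28, 9.24 and 9.19 in Dom/Dom, against 8.87, 8.89, 8.64 and 8.68 in WT, a difference of 0.38 (standard error 0.11). Tnnt2, the tropomyosin-binding subunit of heart and embryonic muscle, had levels of 9.51, 9.83, 10.03 and 9.91 in Dom/Dom, against 9.68, 9.57, 9.49 and 9.42 in WT, a difference of 0.28 (standard error 0.11). In both genes Dom/Dom replicates 2 to 4 were above every WT array, and replicate 1 lay within the WT range. The 2 genes are near neighbours on chromosome 1, with 1 protein-coding gene between them.

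Actn2 encodes the alpha-actinin that anchors thin filaments at the Z disc. It had levels of 8.87, 9.32, 9.29 and 9.54 in Dom/Dom, against 9.06, 8.89, 8.90 and 8.86 in WT, a difference of 0.32 (standard error 0.13). Popdc2 encodes a cyclic AMP binding protein of the muscle membrane. Its levels were 8.77, 9.17, 9.24 and 9.40 in Dom/Dom, against 8.46, 8.81, 8.90 and 8.98 in WT. The ranges of Popdc2 overlapped, yet its differences by number were the most even of the 10 genes, at 0.31, 0.36, 0.34 and 0.42 (SD 0.05). The difference of the means was 0.36. Its standard error of 0.15 takes no account of the replicate numbers.

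Read by replicate number, replicate 1 differed from the other 3. In replicate 1, 6 of the 9 genes other than Mef2c were higher in Dom/Dom, with a median difference of 0.02. In each of replicates 2, 3 and 4, 9 of these 9 were higher, with medians of 0.45, 0.60 and 0.67. The medians over all genes in replicates 1 to 4 were -0.01, 0.02, -0.01 and 0.0007. Dom/Dom replicates 2 to 4 were all above all 4 WT arrays for 9 of the 10 genes, as they were for 3.81% of all genes, and Dom/Dom replicate 1 was the lowest Dom/Dom array for 10 of the 10, as it was for 28.2% of all genes. These shares used the contrast by which the genes were selected and are given as a description.

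**Figure D2:**
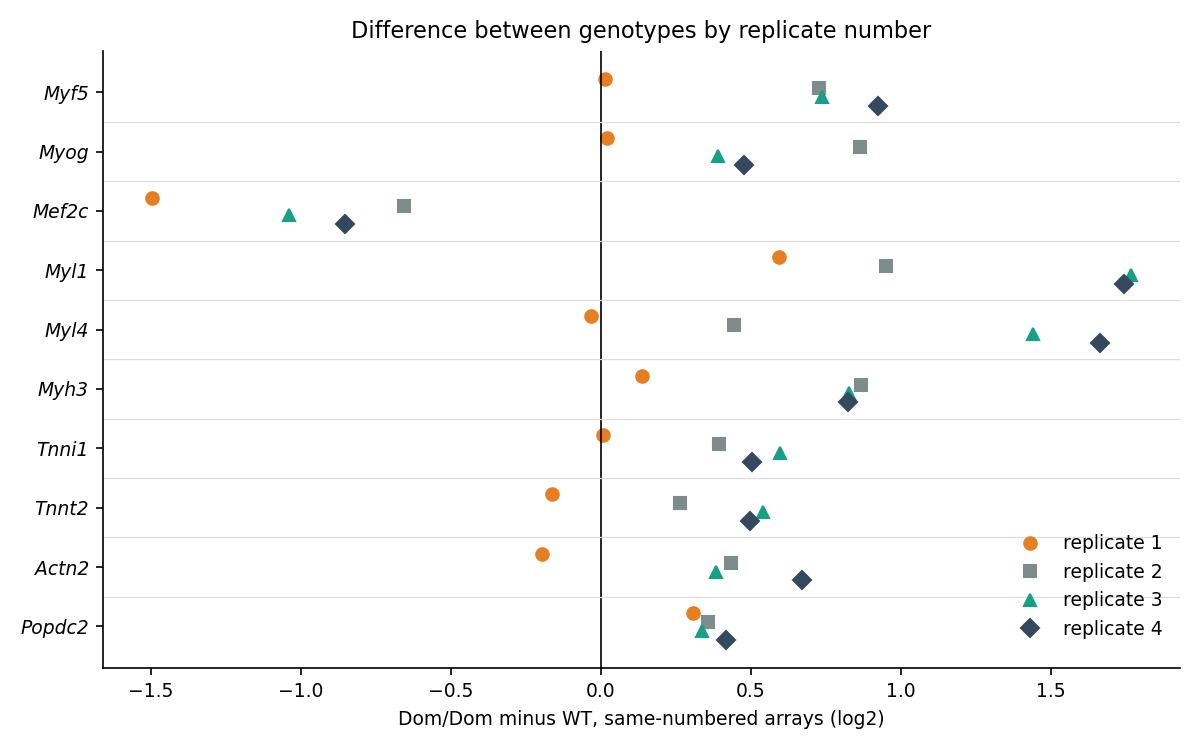
Difference between the Dom/Dom and the WT array of each replicate number (log2; right of 0 means higher in Dom/Dom) for the 10 genes. Replicate 1 lies near 0 for Myf5, Myog, Myl4 and Tnni1 and at 0.60 for Myl1, replicates 2 to 4 lie to the right of 0 for 9 genes, and all 4 lie to the left for Mef2c.

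In the limma fit over all genes, 0 of the 10 passed an adjusted p of 0.05, where 33 of the 6855 genes did (0.481%). With the replicate number as a block, 3 passed (Mef2c, Myl1 and Popdc2), beside 103 genes in all (1.5%). When Dom/Dom replicate 1 was left out, 4 passed (Myf5, Myog, Myl1 and Myh3), beside 0.613% of all genes. With array weights 7 passed, beside 2.77% of all genes, and without both arrays of number 1, an alternative added after seeing the data, 6 passed, beside 1.09%. Groups that did not overlap were seen for 2 genes that were higher in Dom/Dom (Myf5 and Myh3), as for 1.18% of all genes, and for 1 that was lower (Mef2c), as for 2.6%. These counts also rest on the contrast used to select the genes.

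The rest of the striated muscle programme was read from a list of 158 further genes, of which 61 were measured. None of the 61 passed the threshold in the fit with genotype alone, and 6 had an unadjusted p under 0.05, as did 6.11% of all genes. Their median difference was 0.03, with 40 of the 61 above 0, where 49.6% of all genes were. Of the 61, Myl7, Tnnc1, Tpm3, Des, Casq1, Bves and Eno3 had Dom/Dom replicates 2 to 4 all above all WT arrays, as did 3.81% of all genes. Of the 61, 27 were above the receptors' 95th percentile on all 8 arrays, 12 on some and 22 on none, and a difference near 0 in a dim gene does not show that its level was the same. With the replicate block 1 passed, Fbxo32, a ubiquitin ligase of muscle protein breakdown, which was 9.41 ± 0.13 in Dom/Dom and 10.15 ± 0.35 in WT (SD, n = 4 each; limma adjusted p = 0.0932, and 0.0171 with the replicate block). It lay lower in all 4 Dom/Dom arrays, opposite in sign to most of the muscle genes above.

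Of 12 measured regulators and cofactors of myogenesis, 0 passed and 6 were above 0. The differences of widest size were those of the growth inhibitor Mstn (-0.24), of Eya4 (0.22) and of Eya1 (0.11), both Eya genes encoding coactivators of transcription (limma adjusted p from 0.995 to 1.00). Of 11 thick filament genes 0 passed, and the median was 0.02. Myl7, the regulatory light chain of the atria, differed by 0.24, Mybpc1, a myosin binding protein of skeletal muscle, by 0.19 and the light chain gene Myl6b by -0.16 (limma adjusted p = 1.00 each).

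Of 2 thin filament genes 0 passed. Tnnc1, the calcium-binding troponin of slow muscle and heart, had levels of 8.48, 8.83, 8.83 and 8.90 in Dom/Dom, against 8.63, 8.61, 8.63 and 8.33 in WT (difference 0.21, limma adjusted p = 1.00), and Dom/Dom replicate 1 was again its lowest Dom/Dom array. Tpm3, a tropomyosin also made outside muscle, differed by 0.09 (limma adjusted p = 1.00). Of 9 genes of the Z disc and titin list 0 passed; Des, the intermediate filament protein desmin, differed by 0.36 (limma adjusted p = 0.371), Ankrd23 by -0.20 (0.518) and Mypn by 0.18 (1.00).

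Of 10 genes of excitation and calcium handling 0 passed. Casq1, a calcium store protein of fast fibres, differed by 0.26 (limma adjusted p = 0.354), the calcium channel gene Cacna1s by 0.15 (1.00) and the potassium channel gene Kcnj2 by -0.12 (1.00). Of 5 genes of the neuromuscular junction 0 passed, and the acetylcholine receptor genes Chrnb1, Chrnd and Chrng differed by 0.16, 0.10 and 0.09 (limma adjusted p = 1.00 each).

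Popdc2 belongs to the Popeye domain family, and the other 2 members were measured. Bves had levels of 10.42, 10.72, 11.05 and 11.21 in Dom/Dom, against 10.42, 10.37, 10.38 and 10.58 in WT (difference 0.41, limma adjusted p = 0.564, and 0.164 with the replicate block). The WT arrays were close together, and the 3 higher Dom/Dom arrays were replicates 2, 3 and 4. Popdc3, which lies next to Bves on chromosome 10, differed by 0.20 (limma adjusted p = 0.900). In their list of 5 membrane genes 0 passed, and the sarcoglycan gene Sgcd differed by -0.17 (1.00).

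Of 7 genes of metabolism and turnover 0 passed. Eno3, the enolase of muscle, had levels of 11.36, 11.50, 11.69 and 11.73 in Dom/Dom, against 11.30, 11.15, 11.01 and 11.09 in WT. The groups did not overlap, and the difference was 0.43 (limma adjusted p = 0.143, and 0.128 with the replicate block). Pgam2, a mutase of glycolysis in muscle, differed by 0.08 (1.00).

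**Figure D3:**
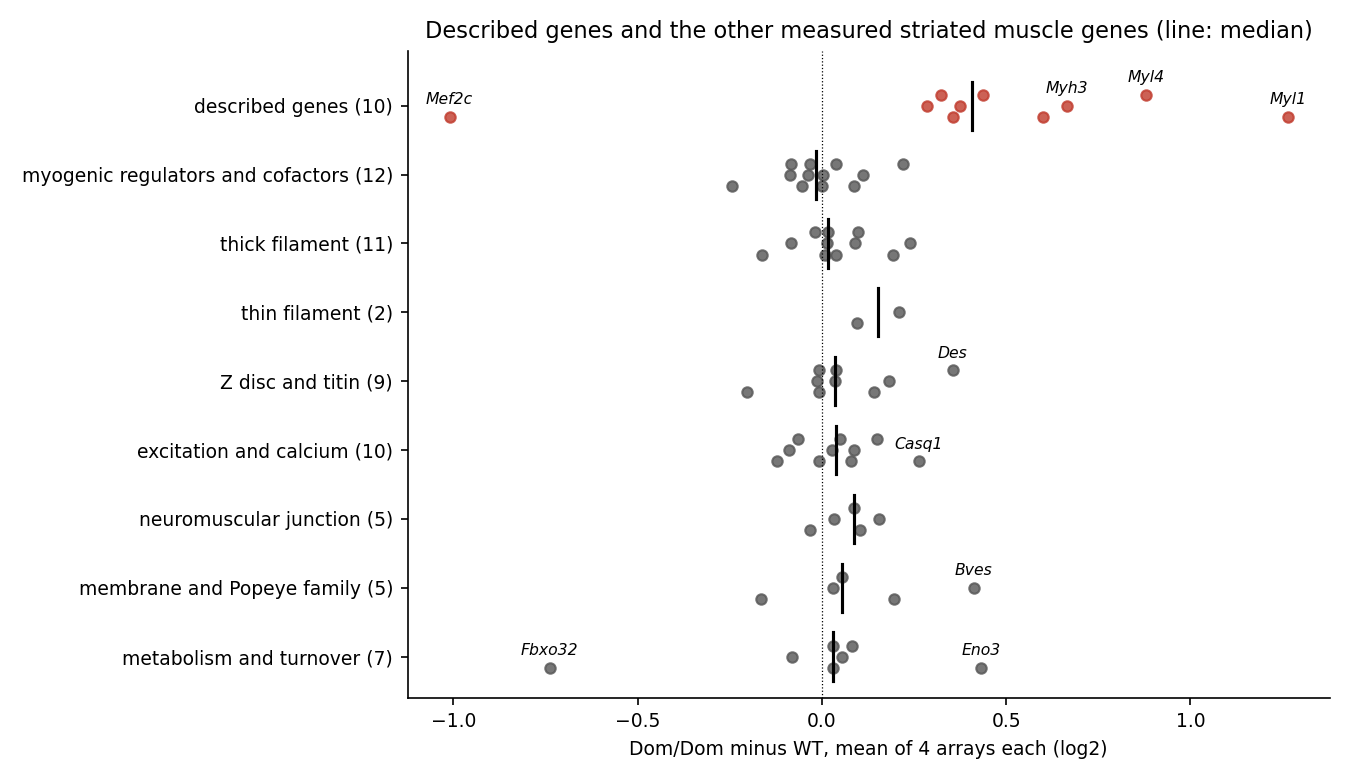
Mean difference between Dom/Dom and WT (log2, 4 arrays each) for the 10 described genes (red) and the 61 other measured striated muscle genes by list (grey, number measured in brackets), with the median as a line. The medians of the lists with 5 or more genes lie between -0.02 and 0.09, and Fbxo32 at -0.74 and Eno3 at 0.43 are the extremes among the 61.

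Markers of other cell types were read beside these genes. Of 25 listed genes of the dermomyotome and somite, 9 were measured and 0 passed, with a median difference of 0.05. Their mean level ran from 8.83 to 9.09 in Dom/Dom arrays and from 8.80 to 8.99 in WT arrays. Meox2 differed by 0.26 (limma adjusted p = 0.855), Meox1 by 0.11 and Twist1 by 0.10 (1.00 each). Pax3, which marks both dermomyotome and neural crest, stood at 12.39 to 12.63 in Dom/Dom and 12.31 to 12.59 in WT.

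Of 15 cardiac genes, 5 were measured and 0 passed, and their mean level ran from 8.51 to 8.87 in Dom/Dom and from 8.67 to 8.99 in WT. Isl1, which also marks sensory neurons, differed by -0.68 (limma adjusted p = 0.591), the atrial gene Myl7 by 0.24 and Hand1 by -0.15 (1.00 each). Of 14 smooth muscle and mural cell genes, 5 were measured, 0 passed and 5 were above 0. Their mean level ran from 9.85 to 10.15 in Dom/Dom and from 9.41 to 9.75 in WT. The arrays of the genotypes did not overlap in this mean, but of the 5 genes only Myocd had groups that did not overlap. The differences of Lmod1 (0.09) and Mylk (0.06) were small. Rgs5, a gene of mural cells, differed by 0.90 (limma adjusted p = 0.583, and 0.00358 with the replicate block), Myocd by 0.63 (0.353) and Smtn by 0.10 (1.00).

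Of 18 listed neural crest markers 10 were measured, of which 8 were lower on average in Dom/Dom and 2 (Tfap2b and Sox9, by 0.02 and 0.09) were higher. With genotype alone 3 of the 10 passed, beside 0.481% of all genes, and each fell: Cdh19, a cadherin of the glial lineage, the neuregulin receptor gene Erbb3 (2.97-fold, limma adjusted p = 0.0214) and Sox10 (2.29-fold). Cdh19 was 6.09 to 7.63 in Dom/Dom, not above the receptors' 95th percentile on any of the 4 arrays, and 10.37 to 11.92 in WT (limma adjusted p = 0.00166). With that percentile as a floor for Dom/Dom, Cdh19 was at least 7.14-fold lower there. With the replicate block 5 of the 10 passed, beside 1.5% of all genes, as Tfap2a (difference -0.50, limma adjusted p = 0.108, and 0.0418 with the block) and Cdh6 (-0.41, 0.376, and 0.0310 with the block) joined the 3. The mean level of the list ran from 10.87 to 11.21 in Dom/Dom and from 11.77 to 12.29 in WT, lowest in Dom/Dom replicate 1. Among the Dom/Dom arrays, however, Ngfr (11.96, others 10.45 to 10.93) and Ednrb (12.05, others 11.79 to 11.91) were highest in replicate 1. Apart from Sox9, the other markers were lowest there. Of the 10, 9 were above the 95th percentile of the olfactory receptors on all 8 arrays; of the 9 somite markers 4 were, of the 5 cardiac markers 2 and of the 5 smooth muscle markers 5. Without any 1 of Dom/Dom replicates 3 and 4 and WT replicates 3 and 4, Sox10 and Erbb3 did not pass (limma adjusted p from 0.0573 to 0.0862), while Cdh19 passed when any of the 8 arrays was left out. The part of these shifts in the levels of the muscle genes was not tested.

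**Figure D4:**
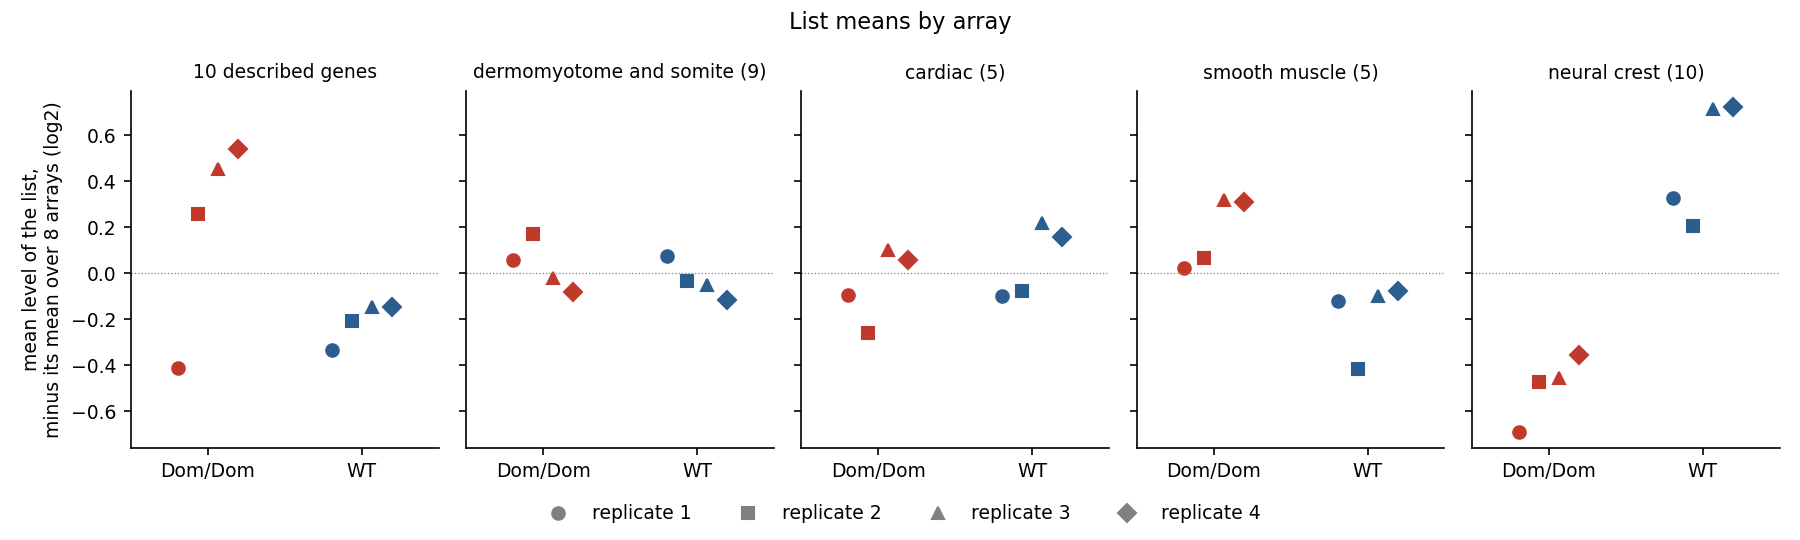
Mean level of the 10 described genes and of 4 marker lists in each array, after subtracting the mean over the 8 arrays (log2), with Dom/Dom left and WT right and the symbol giving the replicate number. For the described genes Dom/Dom replicate 1 is at -0.41, just below the WT arrays (-0.33 to -0.15), and Dom/Dom replicates 2 to 4 are between 0.26 and 0.54. This mean includes Mef2c, which ran the other way and was lowest in Dom/Dom replicate 1. The place of Dom/Dom replicate 1 below the WT arrays rests on Mef2c.

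The mean of the 10 genes, Mef2c included, was also compared over the 8 arrays with the levels of other genes. Among 3394 genes that were on no list and brighter than the median gene, those most like the mean of the 10 genes were Pwp2 (Pearson r = 0.97), Vmp1 (0.97), G3bp1 (0.95), Gnl3 (0.95) and Wdr75 (0.95). Their differences between genotypes were small, from 0.07 for Pwp2 to 0.18 for Vmp1 (limma adjusted p = 1.00 each). These r values were the highest of many, over arrays that share a genotype and a replicate number, and are given as a measure of likeness alone.

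Across the arrays as a whole, medians lay between 8.60 and 8.78, correlations between arrays ran from 0.969 to 0.994, and no array repeated another. The number of arrays limits the precision.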

How the data were processed

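Per the submitters' processing notes the authors used RMA and Partek (versions not given in the sources used here); each deposited value is the log2 level of a probe set on an array, which RMA corrects for background and normalises between arrays. Labelled probe came from 250 ng of total RNA. The table held 16381 probe sets, part of the array; 7416 had 1 gene symbol, 509 several and 8456 none, and the brightest probe set stood for each of 6855 genes. Symbols were updated by gene identifier in RefSeq (GRCm38.p6; 6829 matched). The comparison of Dom/Dom with WT used limma 3.58.1 (R 4.3.3; lmFit, eBayes, genotype alone, two-sided, Benjamini-Hochberg over all genes, threshold 0.05); the fit was tested on simulated data. Differences are Dom/Dom minus WT, and their standard errors are the moderated ones of the fit with genotype alone. Replicate numbers were taken to pair the arrays, from the data. Deviations from the genotype means correlated at 0.47, 0.58, 0.61 and 0.67 for numbers 1 to 4. Unmatched numbers correlated at -0.56 to 0.38, above 0 only between numbers 1 and 2 and between numbers 3 and 4. The arrays therefore also grouped as numbers 1 and 2 against 3 and 4, and the replicate block takes no account of this. Named genes are the 10, Sox10, per list those past the threshold and up to 3 of the widest differences, and 5 by likeness. Others (Myf6, Pax3, Tfap2a, Tfap2b, Sox9, Cdh6, Ngfr, Ednrb, Lmod1, Mylk, the myosins beside Myh3) were chosen after their values were seen. Members and lists were chosen with earlier results of these data known. Alternatives were a replicate block, array weights, averaged probe sets, a filter on dim genes, repeated quantile normalisation and leaving out arrays.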

Additional observations from a re-analysis of the deposited data

Results flagged for a closer look

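Each set of 4 arrays of a genotype was searched for a single array far from the other 3, over 44 named genes and the means of 4 marker lists. Of 96 sets, 9 held such an array, where chance gives about 1 in 20 independent sets, or 5. The genes were chosen partly for their differences and share the same 8 arrays, so the sets are not independent. The count of 9 beside 5 is therefore no test. In Dom/Dom replicate 1 the low values were those of Myh3 (7.57, others 8.33 to 8.44), Tnnc1 (8.48, others 8.83 to 8.90), Meox1 (7.88, others 8.30 to 8.37) and Erbb3 (10.03, others 10.80 to 10.96). Twist1 was high in Dom/Dom replicate 2 (8.97, others 8.49 to 8.55). Among WT arrays, Myl1 was low in replicate 1 (7.14, others 8.19 to 8.35), Casq1 was high in replicate 1 (8.37, others 8.12 to 8.15), Tnnc1 was low in replicate 4 (8.33, others 8.61 to 8.63), and the mean of the smooth muscle list was low in replicate 2 (9.41, others 9.71 to 9.75).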

How the results depend on the processing

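The 10 differences kept their sign under all 14 alternatives (140 values). Of these values, 136 moved by less than 1 SD of the differences by number. The other 4 were of Popdc2, whose differences are even, and ran from 0.25 to 0.48. The replicate block, averaged probe sets and the filter on dim genes could not move these differences. The block was balanced, each gene had a single probe set and the filter only drops genes. The values under these alternatives are therefore no check of the differences. The median difference of the 10 genes lay between 0.35 and 0.54. Averaged probe sets, the filter on dim genes and quantile normalisation gave 32, 38 and 31 called genes, with 0 of the 10 and 0 other muscle genes. With the replicate block, 103 genes passed, with 3 of the 10 and 1 other muscle gene. With array weights, 190 genes passed (2.77%), with 7 of the 10 and 4 other muscle genes. Leaving out 1 array in turn gave 10 to 51 called genes: 11 and 12 without Dom/Dom replicates 3 and 4, 10 without WT replicate 3 or 4 and 51 without WT replicate 2. In those fits 0 to 4 of the 10 passed (4 without Dom/Dom replicate 1) and 0 to 1 other muscle genes (Fbxo32 without WT replicate 2). Leaving out both arrays of number 1, chosen after seeing the data like the counts of the 10 genes, gave 75 genes (1.09%), with 6 of the 10 and 1 other muscle gene, Eno3. The cause of these shifts was not tested. Without detection calls, how far each gene stood above background is unknown.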
